A study of Mus musculus with 4 samples.

Results

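Acnat1, Acnat2 and Baat lie next to each other on mouse chromosome 4 and encode related acyltransferases. These 3 genes, of 21897 genes in the annotation used, and the interval that holds them are described here from single-nucleus chromatin accessibility (scATAC-Seq). The interval was chr4:49372458-49509915 in build mm10, which spans 137458 bp from 2000 bp beyond the end of Acnat2 to 2000 bp beyond the start of Baat. It held 18 of the 119839 peaks called at 0 h, 16 of 158652 at 48 h, 29 of 164113 at 72 h and 20 of 77580 at 96 h. Merging overlapping peaks across libraries gave 14 of 200890 regions, named R1 to R14 from the end of Acnat2 to the start of Baat, and 10 of the 14 had a peak in every library. The cluster was chosen from its counts in these libraries, among them the difference between 0 and 48 h at the end of Acnat2, so those values are given as a description and without a test.

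The study followed liver regeneration after partial hepatectomy (PHx), an operation that takes away a portion of the organ. Hepatocytes came, by a 2-step collagenase perfusion, from undamaged liver (0 h) and from regenerating liver (48, 72 and 96 h), with 1 library per time point (Chromium single cell ATAC, version 1 chemistry). The mice were labelled as 10 to 12 weeks old and kept on a normal diet, and the methods describe male C57BL/6J animals. The hepatocytes of the 48 h library came from 1 mouse, and the sources used here do not give the number of mice behind the 72 and 96 h libraries. There was no sham-operated library, so time after PHx and the library itself cannot be told apart at any comparison below.

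Baat (bile acid-CoA:amino acid N-acyltransferase) joins taurine or glycine to bile acids that have first been activated with coenzyme A, the last step of bile acid synthesis before bile salts are secreted. Acnat1 and Acnat2 belong to the same family, act in peroxisomes and conjugate fatty acids with taurine. All 3 genes are related to the type I acyl-CoA thioesterases, which release the free acid from coenzyme A. Hepatocytes make bile acids, and conjugated bile acids keep the detergent strength that bile needs. The assay marks DNA that a transposase can cut, and a peak is a stretch where cuts were dense enough to be called, so the values below are accessibility and not transcript levels.

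All 3 genes are read from the minus strand, with Baat first, Acnat1 downstream of it and Acnat2 last. RefSeq and GENCODE vM21 place Baat alike, at chr4:49489416-49507915 and chr4:49489422-49506557. They differ more for the other genes: Acnat1 runs over chr4:49443532-49481315 in RefSeq and chr4:49447105-49473912 in GENCODE, and Acnat2 over chr4:49374458-49408151 and chr4:49379840-49408151. The interval also holds an unprocessed pseudogene, Gm12451, and the RefSeq pseudogenes Rbpj-ps1 and Rbpj-ps2. No gene named Acnat3 was in either annotation of the interval.

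The 2 Acnat genes share long near-identical stretches. Of the 31-base words of each region, between 16.9% (R13) and 73.2% (R12) occur more than once on the assembled chromosomes. Stretches of R3 in Acnat2 and R10 in Acnat1 were 98.4% identical over 879 aligned bases, those of R2 and R10 94.1% over 1599, and those of R2 and R9 89.8% over 2928. R1 at the end of Acnat2 and R8 at the end of Acnat1 were 90.2% identical over 1586 aligned bases. How reads that fit both places were assigned is not stated in the sources used here, so counts in these copied stretches are uncertain between the 2 genes.

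The sequences that the results turn on are given 5′ to 3′ from GRCm38.p6, the assembly of mm10. The first shows how alike the start of Acnat1 is to a stretch inside Acnat2. It is the RefSeq promoter of Acnat1 (chr4:49451138-49451359, minus strand, the 222 bases of the promoter window that lie outside the exons of Acnat1, directly upstream of the GENCODE start at 49451137), set beside its copy inside Acnat2 (chr4:49383580-49383801, minus strand). The copy is intronic in Acnat2 and lies directly upstream of a shorter GENCODE transcript that starts at 49383576. The 2 stretches are the same at 217 of 222 positions (97.7%), and capitals mark the 5 that differ.
Acnat1 promoter: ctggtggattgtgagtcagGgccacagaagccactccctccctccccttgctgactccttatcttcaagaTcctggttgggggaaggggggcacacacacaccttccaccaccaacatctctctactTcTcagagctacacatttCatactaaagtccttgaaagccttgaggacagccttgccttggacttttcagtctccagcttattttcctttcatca
Copy inside Acnat2: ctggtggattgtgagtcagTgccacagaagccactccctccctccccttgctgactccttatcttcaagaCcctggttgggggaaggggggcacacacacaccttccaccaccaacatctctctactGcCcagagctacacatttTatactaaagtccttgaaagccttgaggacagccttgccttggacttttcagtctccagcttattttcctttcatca

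The next sequence is the stretch of R1 that was called as a peak in every library (chr4:49372867-49373001, plus strand, 135 bases, 60.7% G and C). It lies in an exon of the pseudogene Rbpj-ps1, beyond the annotated end of Acnat2. All 135 bases are the same as those of chr4:49442834-49442968, which lies in R8 at the end of Acnat1. The identical stretch reaches 141 bases, and each of the 105 words of 31 bases in the printed stretch occurs at 2 to 4 places. Nothing in the sequence of this window therefore separates the 2 copies.
Acnat2 end region: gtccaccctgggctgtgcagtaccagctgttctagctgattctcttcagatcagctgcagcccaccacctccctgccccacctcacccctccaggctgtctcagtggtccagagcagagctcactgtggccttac

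The last sequence lies at the start of Acnat2 and was searched for motifs of hepatocyte factors, with capitals marking the matches. The RefSeq promoter of Acnat2 (chr4:49408152-49408401, minus strand) holds a C/EBP match and an HNF1 core. Motifs were searched on both strands. The C/EBP motif was written as TTGCNNAA and the core of the HNF1 motif as GTTAAT. The core bound by nuclear receptors was written as AGGTCA, and the motif of AP-1 as TGANTCA. For forkhead factors the letters searched were TGTTTAC, and for the TATA box they were TATAAA. Pairs of the HNF1 core, inverted with 1 base between, and of the nuclear receptor core, repeated or inverted with 1 base between, overlap the single cores and were searched too. A match describes the letters only.
Acnat2 promoter: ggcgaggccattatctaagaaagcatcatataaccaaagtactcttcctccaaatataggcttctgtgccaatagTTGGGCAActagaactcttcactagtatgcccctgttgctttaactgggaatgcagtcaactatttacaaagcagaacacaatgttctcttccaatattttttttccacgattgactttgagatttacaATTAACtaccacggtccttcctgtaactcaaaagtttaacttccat

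Such matches are common. Of 32851 RefSeq promoter windows of 300 bases, 10.8% hold the C/EBP motif, 7.10% the HNF1 core, 16.3% the nuclear receptor core and 7.81% the AP-1 motif. Of the central 300 bases of 62837 autosomal regions shared by all libraries, 14.9%, 9.20%, 21.7% and 9.14% do. The forkhead and TATA motifs are in 3.65% and 13.6% of the promoter windows. The forkhead motif is in none of the printed sequences. The TATA motif is only in the copy inside Acnat2, on the strand not printed, at a base that differs from the Acnat1 promoter. The pairs are rarer still, at 0.0396% for repeated nuclear receptor cores and 0.00913% each for the 2 inverted pairs, and are in none of the printed sequences either. The end region of Acnat2 holds no motif searched. The Acnat1 promoter and its copy inside Acnat2 hold 1 AP-1 match each.

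The libraries differed in depth. Total counts in peaks were 136949314 at 0 h, 62553202 at 48 h, 25540258 at 72 h and 15809769 at 96 h, with 3977, 3892, 4256 and 3224 nuclei of at least 1000 counts. Levels are counts per 1000000 peak counts of those nuclei (CPM), with exact Poisson 95% intervals on counts divided by 2, since most counts are even and a fragment gives up to 2. These intervals, and all others below, cover counting error and not the spread between animals. Peaks were called in each library on its own and covered 154 Mb at 0 h, 179 Mb at 48 h, 141 Mb at 72 h and 60.9 Mb at 96 h, so a CPM moves with the length called. CPM is therefore given beside the covered length and CPM per covered kb. The median peak had 3.43, 3.09, 4.17 and 11.9 CPM per kb, so density was highest at 96 h across the genome. The pairs of libraries shared 681 to 882 barcode sequences.

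The hepatocyte label was checked by clustering the nuclei. Clusters with high counts at hepatocyte marker genes held 92.5% of nuclei at 0 h, 94.5% at 48 h, 93.3% at 72 h and 97.5% at 96 h. The other nuclei (297, 215, 287 and 82) were low for hepatocyte markers and are called hepatocyte-low. Of their 2 clusters, the first had 8 of 10 endothelial markers at 2-fold or more above the hepatocyte-like nuclei, and the second had 5 of 5 counted immune markers. A cluster counted as hepatocyte-like, with 2818 of the 3969 such nuclei at 72 h, had 4 of 10 endothelial and 2 of 6 stellate and mesenchymal markers at 2-fold or more, and the part of this in the 72 h shares was not tested. The cluster genes were mainly open in hepatocyte-like nuclei: over the interval these had 330 CPM at 0 h and the hepatocyte-low nuclei 72.6.

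Over the whole interval, accessibility was 326 CPM (95% interval 322–331) at 0 h. It was 468 CPM (460–476) at 48 h, 310.2 (300.4–320.1) at 72 h and 347 (334–361) at 96 h. The 48 h library thus stood above the other libraries, and those of 72 and 96 h lay near the undamaged liver. Relative to 0 h, the log2 ratios of the 48, 72 and 96 h libraries were 0.52 (0.49–0.55), -0.07 (-0.12, -0.02) and 0.09 (0.03–0.15). The covered length also differed, at 64765, 77497, 52626 and 31449 bp. Per covered kb the interval had 5.04, 6.04, 5.89 and 11.03 CPM, which puts each later library above 0 h. The log2 ratios per kb were 0.26, 0.23 and 1.13, beside medians of -0.11, 0.22 and 1.12 over all regions compared.

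**Figure D1:**
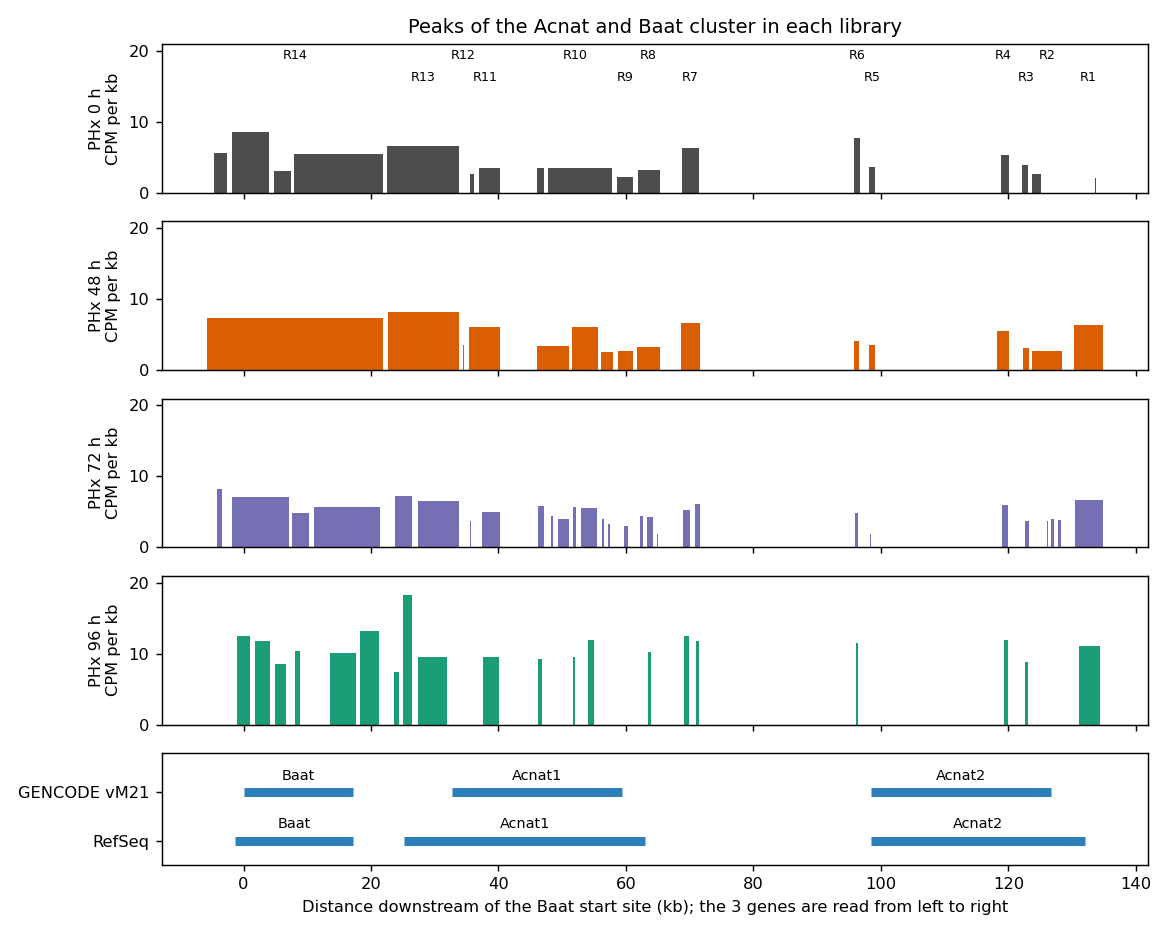
Peaks of the interval in each library, drawn by distance downstream of the GENCODE start of Baat (kb, x axis) with height in CPM per kb of the peak (y axis) and width as the length called; the lowest panel shows the extents of the 3 genes in both annotations. The Baat block R14 was 1 peak of 27626 bp at 48 h and 6 peaks of the interval at 96 h, and R1 at the right widened from 135 bp at 0 h to 4652 bp at 48 h.

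Baat, the bile acid enzyme, carried much of the accessibility of the interval. Its level was 144.8 CPM (141.9–147.6) at 0 h, 202.1 (197.2–207.2) at 48 h, 140.5 (134.0–147.3) at 72 h and 117.8 (110.2–125.9) at 96 h. The order from high to low was 48, 0, 72 and 96 h, and the intervals of 0 and 72 h overlapped. The 96 h place depends on how the peaks were split: chr4:49485272-49488330 was a peak of its own there (600 counts, 40.2 CPM), outside the gene and not summed, while in the other libraries it lay in a peak that reaches the gene. The whole region R14 had a log2 ratio to 0 h of 0.19 (0.10–0.27) at 96 h, so the direction turns. Relative to 0 h, the log2 ratios of the 48, 72 and 96 h libraries were 0.48 (0.44–0.53), -0.04 (-0.12, 0.03) and -0.30 (-0.40, -0.20). The 48 h ratio was above that of 82.7% of 14996 genes with a peak in every library and at least 5 CPM on average.

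The length called over Baat was 24475 bp at 0 h, 27626 at 48 h, 22646 at 72 h and 11010 at 96 h. Its density was 5.91, 7.32, 6.21 and 10.7 CPM per covered kb. On this scale Baat lay above 0 h in each later library, with log2 ratios of 0.31, 0.07 and 0.86. The medians over all genes were -0.22, 0.17 and 1.27. At 96 h the ratio of Baat was above that of 17.9% of the same genes. Both GENCODE starts of Baat, at 49506557 and 49503120, lay in a peak in every library. The RefSeq start at 49507915 did so at 0, 48 and 72 h and not at 96 h.

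The region around Baat, R14 (chr4:49484675-49512340), reaches beyond the interval. Its peaks inside the interval held between 43.2% and 45.5% of the counts of the interval in each library. The whole region had 144.8 CPM at 0 h, 202.1 at 48 h, 140.5 at 72 h and 165.1 at 96 h. At 96 h it stands above the value of the gene because some of its peaks lie outside the gene and its 2000 bp upstream. Its length at 0 and 48 h (24517 and 27626 bp) differed by at most 25%, which is called near-equal length here. The 28699 regions with 1 peak of near-equal length in each of these 2 libraries had a median log2 ratio of -0.10. That of R14, at 0.48 (0.44–0.53), was above 94.8% of them, although R14 itself had 5 peaks at 0 h and 1 at 48 h. It was above 85.4% of the 41337 regions with a peak in every library and at least 5 CPM on average.

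Acnat1, a fatty acid conjugating enzyme, had a level close to that of Baat. It had 141.4 CPM (138.6–144.2) at 0 h, 184.8 (180.0–189.6) at 48 h, 112.9 (107.1–119.0) at 72 h and 117.6 (110.0–125.7) at 96 h. The 48 h library was highest, the undamaged liver second, and the intervals of 72 and 96 h overlapped. Relative to 0 h, the log2 ratios of the 48, 72 and 96 h libraries were 0.39 (0.34–0.43), -0.32 (-0.41, -0.24) and -0.27 (-0.37, -0.17). Between 72 and 96 h it was 0.06 (-0.06, 0.18).

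At 0 and 48 h the length called over Acnat1 was almost the same, 32193 and 33077 bp, and it was 19854 and 11029 bp at 72 and 96 h. Its density was 4.39, 5.59, 5.69 and 10.7 CPM per covered kb. The log2 ratios per kb were therefore 0.35, 0.37 and 1.28, beside medians of -0.22, 0.17 and 1.27 over all genes. Acnat1 thus lay below 0 h at 72 and 96 h by CPM and above it per covered kb. The 48 h value per kb was above that of 96.2% of genes.

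Within Acnat1 the regions did not move alike. R13, at the upstream starts, had 73.1 CPM at 0 h, 90.7 at 48 h, 61.5 at 72 h and 73.4 at 96 h. It was 11185 and 11172 bp long at 0 and 48 h, and its log2 ratio at 48 h was 0.31 (0.24–0.38), above 87.7% of regions of near-equal length. R11, an intron of Acnat1 (chr4:49466258-49471120), had 12.8, 29.6, 14.9 and 24.6 CPM. It was 2.30-fold (2.10–2.53) of its 0 h value at 48 h, 1.16-fold at 72 h and 1.91-fold at 96 h. Its length was 3825 bp at 0 h and 4863 at 48 h, and per covered kb its log2 ratio at 48 h was 0.86, above 99.56% of the 41337 regions compared.

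R10, which holds the start of the shorter Acnat1 transcripts near 49451137, had 39.1 CPM at 0 h, 45.4 at 48 h, 33.1 at 72 h and 19.6 at 96 h. Its length went from 11234 bp at 0 h to 10755, 6718 and 1814 bp. That start lay in a peak at 0, 48 and 72 h and in none at 96 h, and the printed promoter was called over all 222 bases in the first 3 libraries and over 0 at 96 h. Of the upstream starts, the RefSeq one at 49481315 lay in a peak in every library, and the GENCODE ones at 49473879 and 49473912 in none at 96 h. The RefSeq start at 49451109 lay in a peak at 0 and 48 h and in none later. R9, next to the end of the gene, had 5.32, 6.23 and 1.66 CPM at 0, 48 and 72 h and was not called at 96 h. R7, between the 2 Acnat genes at Rbpj-ps2, had 16.8, 19.4, 10.2 and 15.7 CPM. R12, a short peak of the same gene with 50 counts (0.806 CPM), was called at 48 h and in no other library.

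Acnat2 had the lowest level of the 3 genes by CPM and the largest ratios to 0 h. It had 23.2 CPM (22.1–24.4) at 0 h, 61.6 (58.8–64.4) at 48 h, 42.6 (39.1–46.4) at 72 h and 47.4 (42.6–52.6) at 96 h. Every later library was above the undamaged liver, and the intervals of 72 and 96 h overlapped. This rests on the region R1 at the RefSeq end of the gene, whose 0 h peak lies outside the gene and enters no 0 h value: without R1 the log2 ratios to 0 h were 0.46, -0.83 and -1.06. In order of time, these libraries had 2.65-fold (2.48–2.83), 1.83-fold (1.66–2.03) and 2.04-fold (1.81–2.29) of the 0 h value.

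At 48 h Acnat2 was thus the 1 member of 3 at 2-fold or more above 0 h, where 5.91% of 14996 genes were. At 72 h 0 of 3 members passed, where 10.8% of genes did, and at 96 h Acnat2 alone passed, where 6.12% did. No member was 2-fold lower in any library, where 1.90%, 5.91% and 8.48% of genes were. Without R1, 0 of 3 members were 2-fold higher at any time, and Acnat2 was 2-fold lower at 96 h. Since the cluster was chosen from these ratios, nothing is read from the counts. The length called moved with them, at 5306, 13845, 7344 and 4310 bp. Per covered kb Acnat2 had 4.38, 4.45, 5.80 and 10.999 CPM, and the log2 ratios to 0 h were 0.02, 0.41 and 1.33. On this scale 0 of 3 members passed 2-fold at 48 h and at 72 h, where 0.113% and 1.67% of genes did, and Acnat1 and Acnat2 passed at 96 h, 2 of 3, where 72.4% did.

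Per covered kb the members were nearest each other at 96 h and furthest apart at 48 h. At 0 h the density was 5.91 for Baat, 4.39 for Acnat1 and 4.38 CPM per kb for Acnat2. At 48 h the order was Baat, Acnat1 and Acnat2 (7.32, 5.59 and 4.45), and at 96 h all 3 lay between 10.67 and 10.999.

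**Figure D2:**
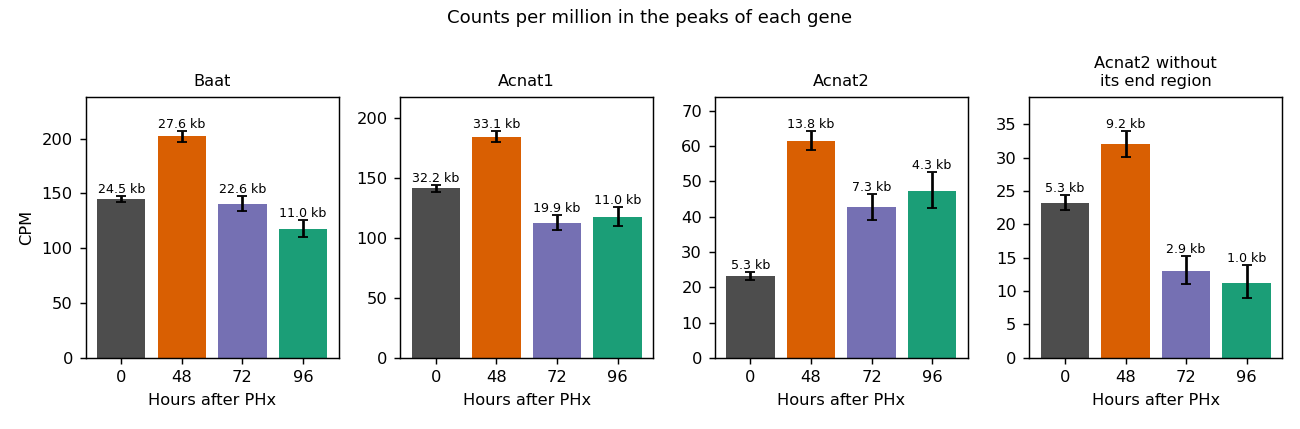
CPM of Baat, Acnat1, Acnat2, and Acnat2 without its end region (y axis, a scale of its own in each panel) in each library by hours after PHx (x axis); bars are 1 library each, error bars are exact Poisson 95% intervals, and the length called is written above each bar. The first 2 genes peak at 48 h, and Acnat2 stays above 0 h at 72 and 96 h (42.6 and 47.4 CPM) with its end region but lies below it (13.1 and 11.2 CPM) without.

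The end of Acnat2, R1 (chr4:49371665-49376316), had 0.278 CPM (0.168–0.434) at 0 h, from 38 counts. It had 29.6 CPM (27.7–31.6) at 48 h from 1835 counts, 29.6 (26.6–32.8) at 72 h from 731 and 36.2 (32.0–40.8) at 96 h from 541. The undamaged liver was therefore far below the other 3 libraries, which lay within 0.29 of each other on the log2 scale. The peak was 135 bp long at 0 h and 4652, 4431 and 3262 bp later, a 34.5-fold longer call at 48 h. Cuts outside a called peak are in none of the deposited counts, so the 0 h value says nothing of the rest of the region.

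Per covered kb the contrast at R1 was smaller. It had 2.06 CPM per kb at 0 h, 6.36 at 48 h, 6.67 at 72 h and 11.1 at 96 h. Against 0 h, the log2 ratio was 6.73 by CPM and 1.63 per covered kb at 48 h, 6.73 and 1.69 at 72 h, and 7.02 and 2.43 at 96 h. With fragments counted in place of cut sites, the CPM ratios were 5.85, 5.85 and 6.16. R1 held 0.0852% of the counts of the interval at 0 h and 6.33%, 9.53% and 10.4% in the later libraries.

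R8, which holds the identical copy at the end of Acnat1, did not follow it. It had 10.9 CPM at 0 h and 12.0 at 48 h, then 5.66 at 72 h and 4.02 at 96 h. Relative to 0 h, the log2 ratios of the 48, 72 and 96 h libraries were 0.14 (-0.04, 0.32), -0.95 (-1.32, -0.59) and -1.44 (-2.02, -0.92). It was 3473 and 3714 bp long at 0 and 48 h and 1357 and 395 bp at 72 and 96 h, and per covered kb it had 3.14, 3.24, 4.17 and 10.2 CPM. How far reads of the copied stretches pass between R1 and R8 was not tested.

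**Figure D3:**
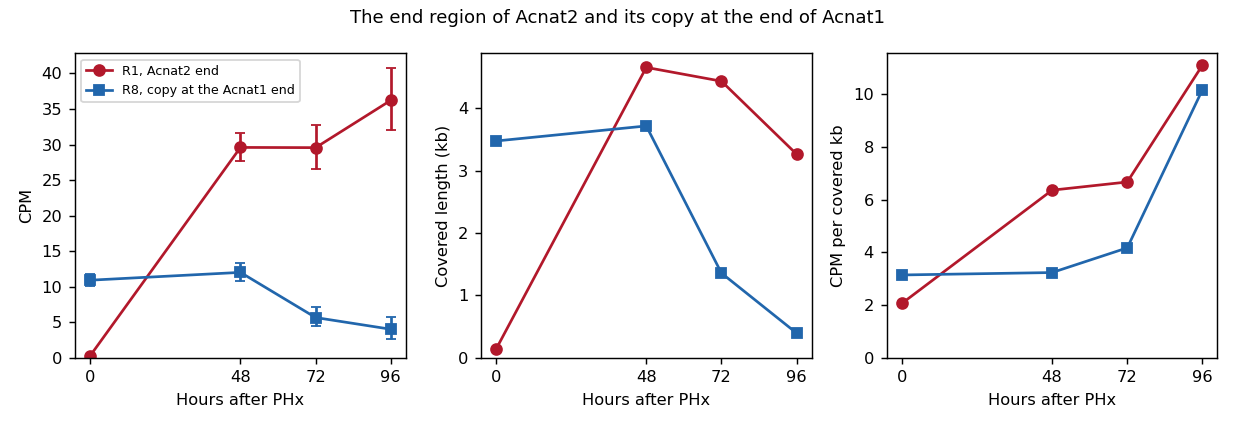
R1 at the end of Acnat2 and R8 at the end of Acnat1, which share the printed 135 bases, by hours after PHx (x axis): CPM with exact Poisson 95% intervals, covered length (kb) and CPM per covered kb (y axes), 1 library per point. R1 goes from 0.278 to 36.2 CPM between 0 and 96 h while R8 goes from 10.9 to 4.02, and per covered kb both are higher at 96 h.

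R1 reaches Acnat2 through the RefSeq end of the gene and lies outside the GENCODE extent, so the value of the gene depends on the annotation. Without R1, Acnat2 had 23.2 CPM at 0 h, 32.0 at 48 h, 13.1 at 72 h and 11.2 at 96 h. It was then 1.38-fold of 0 h at 48 h and 0.562-fold and 0.481-fold at 72 and 96 h, so the direction at the last 2 times turned. Within the GENCODE extent the values were 23.2, 32.0, 11.4 and 11.2 CPM. Within that extent the log2 ratios at 48 and 96 h were 0.41 and -0.59 for Acnat1 and 0.60 and -0.18 for Baat. The 96 h value of Acnat1 leaves out peaks of R13 with 373 and 87 counts, where R13 was 1 peak at 0 h. The whole of R13 had a log2 ratio of 0.006 at 96 h. The 0 h value of Baat leaves out a peak of 1572 counts whose place lies in the single 48 h peak. At 96 h the value of Baat again leaves out the split peak.

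The other regions of Acnat2 had fewer counts. R2, near its GENCODE end, had 3.65 CPM at 0 h, 12.5 at 48 h and 3.40 at 72 h and was not called at 96 h. Its length was 1424, 4700 and 871 bp. R4, in an intron, had 6.38, 10.4, 5.02 and 7.43 CPM. R3, at the copied start inside the gene, had 3.52, 2.71, 2.22 and 3.75 CPM and was the 1 of these with its lowest value at 72 h and its highest at 96 h.

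The start of the full-length Acnat2, at 49408151, lay in a peak at 0, 48 and 72 h and in none at 96 h. R5, which holds it, had 3.46 CPM at 0 h, 3.23 at 48 h and 0.283 at 72 h, and was not called at 96 h. Of the 250 promoter bases printed above, 250 were called at 0 h, 235 at 48 h, 53 at 72 h and 0 at 96 h. A further RefSeq start, at 49405758, lay in no peak in any library.

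R6, upstream of that start, was the 1 region of the interval that lay lower at 48 h at near-equal length by close to 2-fold. It had 6.23 CPM (5.65–6.85) at 0 h, 3.21 (2.61–3.91) at 48 h, 2.14 (1.41–3.13) at 72 h and 4.22 (2.88–5.97) at 96 h. At 48 h it was 0.515-fold (0.410–0.642) of 0 h with lengths of 814 and 784 bp. Among regions of near-equal length, 0.317% had a lower ratio. R6 overlaps exon sequence of the pseudogene Gm12451 in RefSeq. Of the 31-base words of R6, 68.6% occur more than once on the assembled chromosomes, so the place of its counts is uncertain. At 72 and 96 h its length was 444 and 365 bp, and per covered kb its log2 ratio was -0.66 and then 0.59. R6 and R3 fell under the mean of 5 CPM asked of the regions compared, so these shares place them among regions of more counts.

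Of the 10 regions called in every library, 8 had at least 5 CPM on average. At 48 h R1 and R11 were 2-fold or more above 0 h by CPM, 2 of 8, where 4.11% of 41337 regions were, and 0 were 2-fold lower, where 0.871% were. At 72 h R1 passed, 1 of 8, where 8.13% did, and 0 were lower, where 4.24% were. At 96 h R1 again passed, 1 of 8, where 8.96% did, and R8 was 2-fold lower, where 6.91% were. Per covered kb R1 passed at 48 h and at 72 h, 1 of 8 each time, where 0.179% and 3.16% did, and 5 of 8 passed at 96 h, where 60.6% did. These counts rest on the contrast that chose the cluster and are given beside the background only.

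To compare nuclei at a matched depth, each was thinned to 1000 counts. This matches the counts per nucleus, but the peaks in which they are counted still differ between libraries. Among hepatocyte-like nuclei, 26.8% (exact binomial 95% interval 25.3–28.2) had a count in the interval at 0 h. In the 48, 72 and 96 h libraries 34.4% (32.9–36.0), 23.4% (22.1–24.7) and 24.1% (22.6–25.6) did. The intervals of 72 and 96 h overlapped, and the 48 h library stood above the others. Over all nuclei and without thinning, the shares were 82.4%, 77.1%, 49.7% and 46.5%, in the order of the depth.

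For each member the 48 h library was highest in shares of nuclei too. For Baat 12.6% of hepatocyte-like nuclei had a count at 0 h, 16.7% at 48 h, 11.3% at 72 h and 8.82% at 96 h. For the whole region R14 the shares at 0 and 96 h were 12.6% and 12.6%, so the lower share of Baat at 96 h rests on the peak that was not summed. For Acnat1 the shares were 13.2%, 15.4%, 9.15% and 9.13%. For Acnat2 they were 2.26%, 5.79%, 3.45% and 3.63%, with R1 counted in the later libraries. R1 itself had 0 of 3680 hepatocyte-like nuclei at 0 h, which allows a share of up to 0.0815%, and 2.502%, 2.52% and 2.80% later. Without thinning, the shares for R1 were 0.951%, 17.8%, 8.09% and 7.32%, and the 0 h shares refer to the 135 bp called there. R11 in Acnat1 had 0.815%, 2.58%, 1.03% and 1.81%.

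In hepatocyte-low nuclei at the same depth the shares of the interval and of Baat were lower in each library. The interval had a count in 4.38% of them at 0 h, 7.91% at 48 h, 6.27% at 72 h and 3.66% at 96 h. Baat had 1.68%, 2.79%, 0.697% and 1.22%. R1 had a count in none of the 297, 215 and 82 such nuclei at 0, 48 and 96 h, and in 0.697% at 72 h. By the rule of 3 nuclei, the counts of 0 allow shares of up to 1.01%, 1.40% and 3.66%. At 96 h that limit is above the share of R1 in hepatocyte-like nuclei, so no difference was detectable there. Before thinning, these nuclei had a median of 3398, 2053, 1610 and 1290 counts, against 28564, 12451, 5143 and 3780.5 in the hepatocyte-like nuclei.

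**Figure D4:**
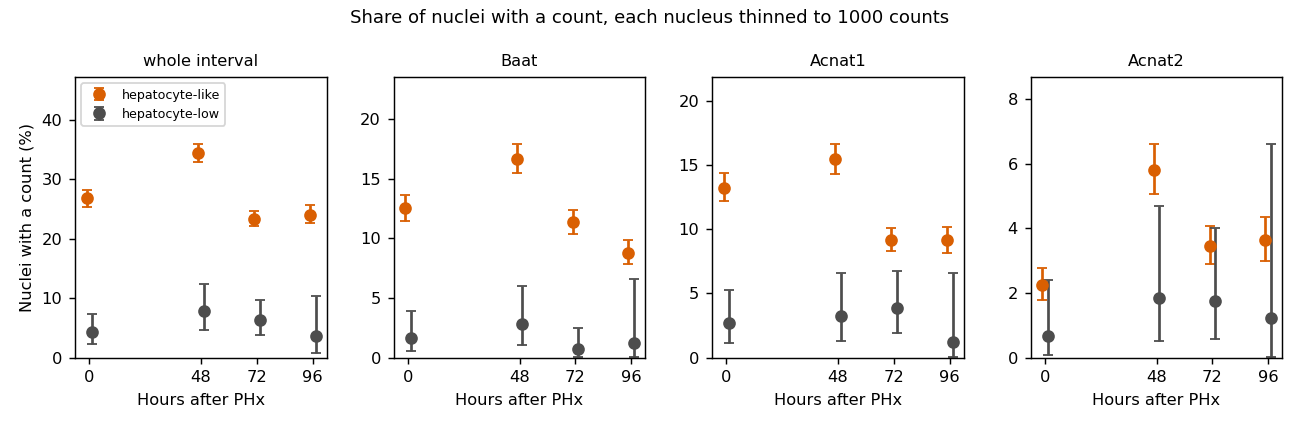
Percent of nuclei with a count in the whole interval, Baat, Acnat1 and Acnat2 (y axis, a scale of its own in each panel) by hours after PHx (x axis), with each nucleus thinned to 1000 counts; orange points are hepatocyte-like and grey points hepatocyte-low nuclei of 1 library, with exact binomial 95% intervals. The hepatocyte-like nuclei lie highest at 48 h in every panel, from 5.79% for Acnat2 to 34.4% for the interval.

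Counts at the members were also compared within single nuclei. Among hepatocyte-like nuclei with a count at Baat, 13.4% also had one at Acnat1 at 0 h, against 13.2% of those without. At 48 h the shares were 17.9% (15.0–21.2) and 14.9% (13.7–16.2), at 72 h 8.89% and 9.18%, and at 96 h 9.75% and 9.08%. The intervals overlapped in each library. No peak was counted for both genes, and at 1000 counts a nucleus most often has no count in a gene at all.

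Hepatocyte nuclei were also divided by their counts at pericentral and periportal genes, a range and not a type, since a nucleus falls on either side by few counts. Cyp7a1, described further on, is among the pericentral genes. At 48 h the interval had a count in 34.9% of nuclei with more pericentral counts and 34.4% of those with more periportal counts. At 0 h the shares were 23.9% and 27.6%, at 72 h 21.4% and 24.95%, and at 96 h 19.4% (15.8–23.3) and 25.5% (23.7–27.3), whose intervals did not overlap. Baat at 96 h had 6.68% (4.55–9.40) and 9.87% (8.69–11.2). Acnat1 at 96 h had 6.01% and 9.78%. These shares are 1 library each and were not tested.

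The clusters of nuclei were mostly of 1 library, and 3 comparisons within a library are given as a description. At 48 h the larger cluster of hepatocyte-like nuclei (2742 nuclei) had a count in the interval in 37.2% (35.4–39.0) and a further one (769 nuclei) in 25.9% (22.8–29.1). For R1 these clusters had 2.92% and 1.43%, and for R11 3.14% and 0.780%. The second of them also held 930 nuclei of the 72 h library, where the interval had a count in 20.0% and R1 in 1.72%, against 24.98% and 2.87% in the main 72 h cluster. At 0 h the 2 main clusters, of 1981 and 1690 nuclei, had 25.9% and 27.8%, and R1 had 0 in both.

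The enzymes that work before and beside the members were described from lists of genes. Bile acids reach Baat as coenzyme A esters, made by ligation and by peroxisomal side chain oxidation. Counted by CPM, of 9 such genes 0 were 2-fold higher and 1 was 2-fold lower at 48 h, 0 and 1 at 72 h, and 0 and 4 at 96 h. Of all genes, 5.91%, 10.8% and 6.12% were higher and 1.90%, 5.91% and 8.48% lower. The median log2 ratios of the list by CPM were -0.32, -0.64 and -0.96, beside -0.04, -0.01 and 0.08 over all genes. Per covered kb the direction at 72 and 96 h turned, with list medians of -0.16, 0.041 and 1.14 beside -0.22, 0.17 and 1.27 over all genes. On this scale Slc27a5, Amacr, Acox2, Hsd17b4, Scp2 and Abcd3 were 2-fold higher at 96 h, where 72.4% of all genes were. None of the list was 2-fold lower per covered kb at 96 h. At 48 h by CPM the highest of the list was Scp2, a sterol carrier with thiolase activity, at 0.70. The lowest was Acaa1a, a peroxisomal thiolase, at -1.45. Per covered kb Scp2 and Acaa1a had 0.52 and -0.34, and the lowest was Acaa1b at -0.60.

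The acyl-CoA thioesterases, which hydrolyse coenzyme A esters, had 8 genes counted, among them Acot8 and Acot12, which belong to another protein family than the members. Counted by CPM, 0 of these were 2-fold higher at any time, and 0, 1 and 1 were lower at 48, 72 and 96 h, beside the same shares of all genes as above. By CPM their medians were -0.30, -0.57 and -0.61, and per covered kb they were -0.0034, 0.20 and 1.004. At 48 h they ran by CPM from -0.96 for Acot8, a peroxisomal enzyme, to 0.43 for Acot5, which lay between Acnat1 and Baat. The length called over Acot8 had a log2 ratio of -0.97, and per covered kb Acot8 and Acot5 had 0.0089 and 0.32. The gene that passed 2-fold by CPM was Acot4, at -1.29 and -1.21. Per covered kb Acot4 had 0.095 and 0.98 at 72 and 96 h. On that scale Acot5, Acot6, Acot8 and Acot12 were 2-fold higher at 96 h, where 72.4% of all genes were, and none was 2-fold lower.

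Taurine, the amino acid that the members attach, comes from cysteine. Counted by CPM, of 5 genes of its supply 0 passed 2-fold at 48 h, and 1 was higher at 72 and 96 h, where 10.8% and 6.12% of all genes were. The medians by CPM were -0.12, -0.20 and -0.12, and per covered kb -0.27, 0.089 and 1.13. That gene was Gadl1, a decarboxylase, with log2 ratios of 0.25, 1.41 and 1.02. Cdo1, cysteine dioxygenase, was lowest of the list at 48 h by CPM, at -0.36. Per covered kb it had -0.30, and Csad was lowest at -0.35.

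Genes of bile acid synthesis and its control lay far apart. By CPM, of 10 genes, 3 were 2-fold higher and 1 lower at 48 h, 2 and 2 at 72 h, and 2 and 3 at 96 h. The shares of all genes were 5.91% and 1.90%, 10.8% and 5.91%, and 6.12% and 8.48%. Per covered kb 1 gene, Cyp7a1, was 2-fold higher at 48 h, where 0.113% of all genes were. Cyp7a1 also passed at 72 h, with a log2 ratio of 1.11, where 1.67% of all genes were higher. At 96 h 7 genes were higher, where 72.4% of all genes were. At 48 and 96 h 0 were 2-fold lower, and the share of all genes lower on this scale is not given. The medians by CPM were 0.17, -0.38 and -0.70, and per covered kb -0.032, -0.017 and 1.12. Cyp7a1, the rate-limiting enzyme of bile acid synthesis, was highest at 48 h with a log2 ratio of 4.03, and had 12.4, 202, 143 and 187 CPM in the 4 libraries in order of time. Its length called went from 3224 to 18582 bp, and per covered kb its 48 h log2 ratio was 1.5015. Cyp8b1, the sterol 12-hydroxylase that sets the share of cholic acid, was lowest at -1.81, with 193, 54.9, 49.6 and 58.0 CPM. Per covered kb its 48 h log2 ratio was -0.91.

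Of 8 genes within 200 kb of the interval 7 were counted, and Ppp3r2 had no peak. Counted by CPM, 0 were 2-fold higher at 48 h, where 5.91% of all genes were, and at 72 and 96 h 2 were, where 10.8% and 6.12% were. By CPM 1 gene was 2-fold lower at 48, 72 and 96 h, where 1.90%, 5.91% and 8.48% of all genes were. This was Zfp189, which shared its 0 h peak with another gene, so its ratio is not its own and is not given. Without it 0 were lower. Grin3a, a glutamate receptor subunit, was highest at 48 h with a log2 ratio of 0.88, then 1.29 and 1.26. Tmem246 had 0.86, 1.18 and 1.11. Plppr1 had 0.38 at 48 h, next to the 0.39 of Acnat1.

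**Figure D5:**
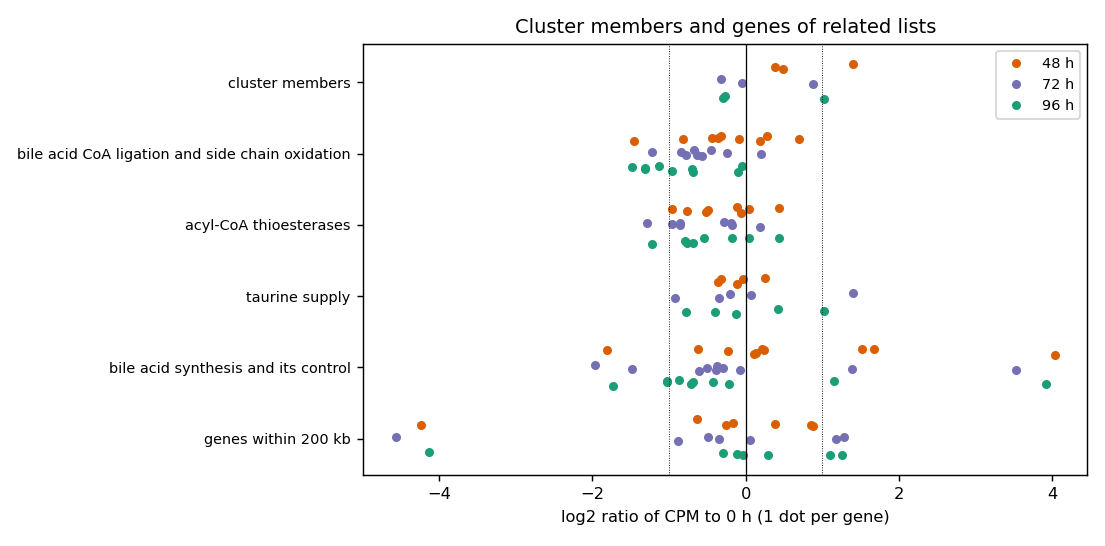
Log2 ratio of CPM to 0 h (x axis) for the 3 members and the genes of each list (rows), with 1 dot per gene and colours for 48, 72 and 96 h; dotted lines mark 2-fold. The members lie at 0.39 to 1.41 at 48 h, the median thioesterase at -0.30 and Cyp7a1 at 4.03.

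The genes most like each member were found by the distance between their 3 log2 ratios over the 4 libraries, among the same 14996 genes. For Baat these were Sorbs2, Gmppb, Taf1d, Dot1l and Cpne2, at distances of 0.0758 to 0.103. For Acnat1 they were Txndc5, Ap1m1, Nmur1, Usp49 and C8a, at 0.0173 to 0.0980. For Acnat2 they were Mfsd2a, Rcan1, Inka2, Adgrl2 and Rtn4rl2, at 0.243 to 0.307, so no gene was as near to Acnat2 as these were to the other members. These distances use the ratios of Acnat2 with R1, which turn at 72 and 96 h without it, and no distances were computed without it.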

How the data were processed

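The authors deposited, for each library, a matrix of counts per peak and barcode with its peaks and barcodes; the submitters' processing notes name Cell Ranger ATAC and mm10, and the file headers give version 1.1.0. The counts are transposase cut sites in peaks called per library, with no peak score, and depth is the total count of a library. Barcodes with at least 1000 counts were kept. Sequence came from the RefSeq promoter table and the genome (GRCm38.p6); the table matched 2 of the 3 members. Gene values are sums over peaks that overlap a gene (union of GENCODE vM21 and RefSeq) or its 2000 bp upstream. Ratios have conditional exact 95% intervals. With 1 library per time point no test between times was possible, and 2-fold served as the threshold. Nuclei were clustered on binarised shared regions (30 components, 30 neighbours, Leiden at resolution 0.5), and hepatocyte-low clusters had a mean log2 marker level under -1. No doublet caller was run; leaving out the 5% of barcodes with the most counts was an alternative, as was counting fragments in place of cut sites.

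The members, lists and rules were chosen with earlier results of these data known. Named were the members, the highest and lowest gene of each list at 48 h, thioesterases past 2-fold, and the 5 nearest genes per member. Gadl1, Tmem246, the list genes named for their values per covered kb and the regions described were chosen after their values were seen. The GENCODE extent, leaving out R1 and the near-equal length comparison (lengths within 25%) were added after seeing the data. The regions that this comparison was made against had 1 peak in each of the 2 libraries. The ratio and thinning steps were tested on simulated data. Tools were Python 3.11.15, numpy 2.4.6, pandas 2.3.3, scipy 1.17.1, scikit-learn 1.9.0, leidenalg 0.10.2, igraph 0.11.9 and matplotlib 3.10.9. A gene and a sequence that the rules would also have named are not reported here.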

Additional observations from a re-analysis of the deposited data

How the results depend on the processing

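No paired analysis was possible because each time point had 1 library, so no replicate could be left out either. Keeping every deposited barcode, hepatocyte-like nuclei, nuclei of at least 3000 counts or all but the deepest 5% left the 18 log2 ratios of the interval, the members, R1 and R14 within their intervals. Counting fragments in place of cut sites did so for 15 of the 18 and moved R1 to 5.85, 5.85 and 6.16. With CPM taken over shared regions the interval had log2 ratios of 0.60, -0.012 and -0.018 at 48, 72 and 96 h, and R14 had 0.56 at 48 h and 0.083 at 96 h. Per covered kb the interval had 0.26, 0.23 and 1.13 and R14 0.31, 0.072 and 0.93. Also per covered kb, Acnat1 turned to 0.37 at 72 h and 1.28 at 96 h and Baat to 0.86 at 96 h. So did the list medians at 72 and 96 h, to 0.041 and 1.14 (ligation and oxidation), 0.20 and 1.004 (thioesterases) and 0.089 and 1.13 (taurine supply). Bile acid synthesis turned to -0.032 at 48 h and 1.12 at 96 h, and the genes within 200 kb to 0.061 at 72 h and 1.46 at 96 h. Longer calls have more counts by construction, and the cause of the other shifts was not tested. With peaks at or above the median count the interval had -0.13 at 72 h and R14 0.29 at 96 h. Without R1 the interval had 0.43, -0.22 and -0.070. Acnat2 turned to -0.83 and -1.06 at 72 and 96 h without R1 and to -1.02 and -1.06 within the GENCODE extent, where Baat had 0.00190 at 72 h. The share of all nuclei with a count in the interval was 25.1%, 32.9%, 22.2% and 23.5% at 1000 counts, 56.8%, 65.1%, 47.5% and 50.9% at 3000, and 82.4%, 77.1%, 49.7% and 46.5% without thinning; in hepatocyte-like nuclei it was 26.8% at 0 h.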
